A study of Mus musculus with 2 samples.

Results

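The regions described here are listed ELF3 regions in mouse chromatin, each more than a kilobase wide, that overlap several separate listed NFKB2 regions. They were chosen by position alone: an ELF3 region on chromosomes 1 to 19, under 4000 bp wide, that overlapped 2 or more regions of the NFKB2 list by at least 1 bp. This gave 181 of the 68319 ELF3 regions in the list. They were 0.273% of the 66283 ELF3 regions under 4000 bp on those chromosomes, while 19.5% of these overlapped at least 1 NFKB2 region. ELF3 regions under 1000 bp were too narrow to overlap 2 listed NFKB2 regions. Of the 13661 from 1000 to under 4000 bp, the 181 were 1.32% (95% interval 1.14 to 1.53%). Both widths and overlaps were measured in the same lists, so the numbers, widths and overlaps of the 181 regions describe the choice and are not tested.

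The data came from CUT&RUN, in which a nuclease bound to an antibody cuts out the DNA around a chromatin protein. Tubular epithelial cells from the kidney of wild-type mice, in primary culture, were given TNFα and IFNγ before the assay, and the labels state neither dose nor duration. There were 2 libraries, 1 per antibody, both labelled as the same batch and both from treated cells, so the binding had no untreated counterpart and no replicate. Differences between the lists therefore have no replicate check, and every interval below is a 95% interval for counting error only.

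ELF3 is an ETS-family transcription factor found in epithelia, and it is induced by inflammatory cytokines. NFKB2 is made as the long protein p100, which holds other NF-κB subunits in the cytoplasm. Signalling through the non-canonical pathway processes it to p52, which enters the nucleus, mostly with RELB, and binds κB sites. Regulatory DNA often carries several binding sites for such factors close together, in promoters and in enhancers, and clustered sites of this kind are common at cytokine-induced genes.

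Signal is given as fragments at the summit, the base of highest coverage in a region. These whole numbers were recovered from the fold and −log10 p that the authors' peak caller wrote for each region. The lowest local background, called the floor, was 1.22 fragments per position for ELF3 and 1.36 for NFKB2, and regions at the floor were listed from 6 and 8 fragments upward. The ELF3 list gives 1 summit per region, so its signal is known at a single place in each of the 181 regions. ELF3 regions in the list were never closer than 1001 bp on chromosomes 1 to 19, so a wide region may join several places of binding. Whether ELF3 was bound along the whole width is not known. Coordinates are those of the files, counted from 1, and no gene was assigned to them because the files' sequence names belong to GRCm39 and the gene table used for names is of another build.

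The first question was how wide ELF3 regions divide by the NFKB2 regions they hold. Of the 181 regions, 180 held 2 NFKB2 regions and 1 held 3. Together they held 363 NFKB2 regions, 2.58% of the 14060 on chromosomes 1 to 19 (2.33 to 2.86), and 0 of these touched any other ELF3 region. The ELF3 regions were 1534 to 3997 bp wide, with a median of 3003 bp (quartiles 2350 and 3461), against a median of 420 bp over all 66702 ELF3 regions of these chromosomes. No 2 NFKB2 regions in the list were closer than 1006 bp, so an ELF3 region had to span at least such a gap to be chosen. NFKB2 places closer together than this may be listed as 1 region, so counts of NFKB2 regions are not counts of binding places.

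The share with several NFKB2 regions was higher the wider the ELF3 regions were. It was 0.894% of 3133 ELF3 regions from 1500 to under 2000 bp (28 regions, interval 0.595 to 1.29%) and 1.76% of 1480 from 2000 to under 2500 bp. It was 4.83% of 746 from 2500 to under 3000 bp and 13.3% of 384 from 3000 to under 3500 bp. From 3500 to under 4000 bp it reached 17.4% of 230 (40 regions, 12.7 to 22.9%). Over the same widths the share with no NFKB2 region went from 54.0% to 23.0%, while the share with exactly 1 went from 45.1% to 59.6%. Wide ELF3 regions with a single NFKB2 region thus outnumbered those with several in each of these 5 width bins.

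**Figure D1:**
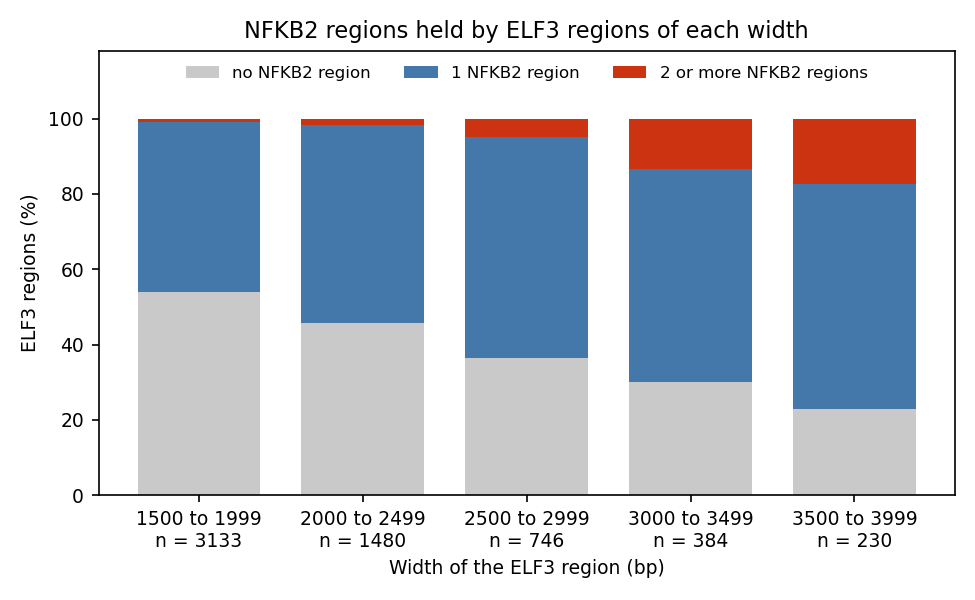
Bars give the percentage of ELF3 regions of each width (x axis, bp) on chromosomes 1 to 19 that held no, 1 or several NFKB2 regions, with the number of ELF3 regions under each bar. The part with several NFKB2 regions goes from 0.894% in the narrowest bin to 17.4% in the widest.

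Just inside the limit of 4000 bp lay chr8:127552763-127556759 (3997 bp), chr9:44645177-44649145 (3969 bp) and chr17:71060370-71064332 (3963 bp), with 78, 24 and 77 ELF3 fragments. Just outside it lay chr2:60524925-60528977 (4053 bp), chr12:108358647-108362708 (4062 bp) and chr5:3391737-3395813 (4077 bp), with 51, 72 and 48. Among the 419 ELF3 regions of 4000 bp or more, 144 held several NFKB2 regions (34.4%, 29.8 to 39.1%). The narrowest of the 181 was chr10:76960028-76961561, of 1534 bp, with 31 ELF3 fragments and NFKB2 regions of 15 and 10 fragments.

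ELF3 bound the 181 regions more strongly than it bound most regions of its list. Their median summit held 54 fragments (quartiles 41 and 72, range 15 to 162), and the median over all ELF3 regions of chromosomes 1 to 19 was 22. At equal width the distance was smaller. ELF3 regions of the same widths with exactly 1 NFKB2 region (2985 regions, weighted to the same width bins of 250 bp) had a median of 46 fragments (quartiles 32 and 66). Those with none (2807 regions) had 33 (22 and 48). The quartiles of the 181 regions overlapped those of both sets.

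The medians had this order in each of the 5 width bins. From 1500 to under 2000 bp the medians were 28 fragments with no NFKB2 region, 48 with 1 and 57 with several. From 2500 to under 3000 bp, where the last 2 were closest, they were 30, 45 and 47.5. From 3500 to under 4000 bp they were 36, 47 and 54. Within the 181 regions width and summit fragments were nearly unrelated, with a Spearman's rho of 0.044 across regions, which share 1 library and are not replicates.

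**Figure D2:**
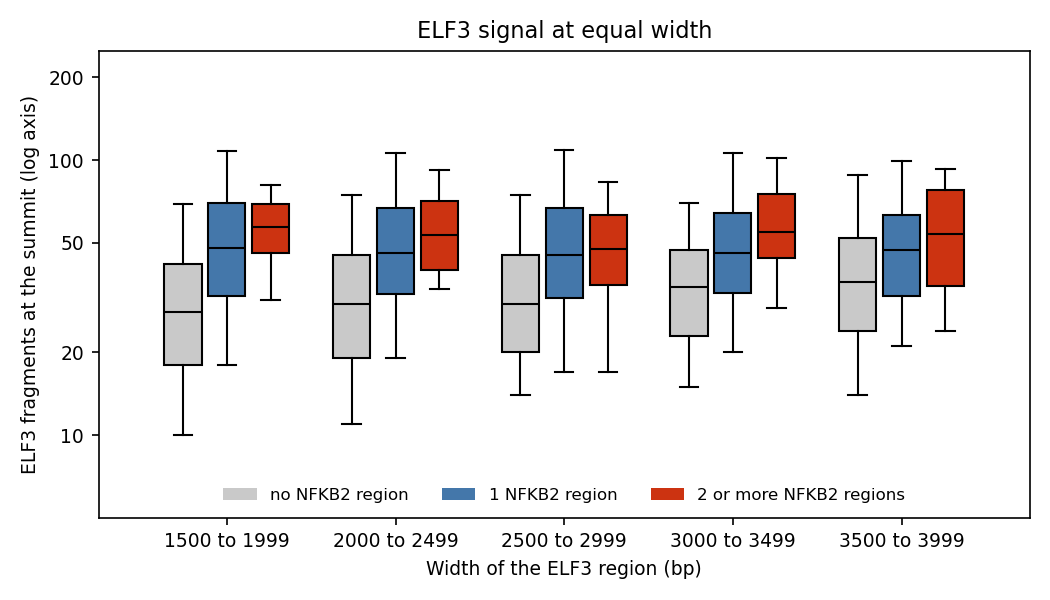
Boxes show ELF3 fragments at the summit (y axis, log) by width of the ELF3 region (x axis, bp), with the median, the quartiles and whiskers at the 5th and 95th percentile. In each width bin the median rises from regions without NFKB2 through regions with 1 to regions with several, and the boxes overlap.

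The strongest ELF3 summits among the 181 regions were ranked by the −log10 q of the authors' caller, at a background under 2 times the floor. The highest was at chr17:34822356-34825492, with 162 ELF3 fragments and NFKB2 regions of 49 and 19; local background there was up to 1.96 times the floor. It was followed by chr13:25266581-25269516, with 106 ELF3 fragments and 26 and 12 for NFKB2. The next was chr1:172068526-172071528, with 105 and then 26 and 22. At chr11:100286091-100289231 ELF3 had 102 fragments and NFKB2 41 and 17. At chr13:69741075-69744921 ELF3 had 96 and NFKB2 28 and 23. Across the 181 regions Spearman's rho of ELF3 with NFKB2 fragments was 0.27 for the stronger NFKB2 region and 0.20 for the weaker one. These are descriptions across regions of 2 libraries.

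The NFKB2 regions within an ELF3 region were compared by their fragments. The stronger NFKB2 region, taken by fragments, had a median of 21 (quartiles 17 and 29, range 10 to 74). The weaker had 13 (11 and 16, range 8 to 38). All 14060 NFKB2 regions of these chromosomes had a median of 16, as far as fragments could be recovered, and single NFKB2 regions in ELF3 regions of equal width had 18. Naming the stronger and the weaker by their counts sets them apart by construction, so these medians are only levels. The stronger region was also the wider one at the median, 429 bp against 285 bp.

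The weaker region reached a median of 0.647 times the fragments of the stronger (quartiles 0.476 and 0.813). NFKB2 regions at the floor were listed only from 8 fragments, so pairs with lower ratios may be missing and the ratio depends on this limit. In 51 of 181 regions the stronger had 2 or more times the fragments of the weaker (28.2%, 21.8 to 35.3%), and in 3 both had the same number. An exact binomial interval for the share of the stronger region excluded equality in 46 of 181 (25.4%, 19.2 to 32.4%). In the others the difference was within counting error at this depth. Spearman's rho between the counts of the stronger and the weaker region was 0.43 across the 181 regions. Ordering each pair by its counts makes such a value positive by construction, so no association is read from it.

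The most unequal case was chr4:141772825-141775926, where NFKB2 had 74 fragments (58.1 to 92.9) at one place and 10 (4.80 to 18.4) at the other, 1524 bp away, and ELF3 had 87. At chr2:32765031-32768850 NFKB2 had 67 (51.9 to 85.1) and 12 (6.20 to 21.0) with ELF3 at 29. At chr8:111529617-111532642 it had 52 (38.8 to 68.2) and 11 (5.49 to 19.7) with ELF3 at 45. In each of these 3, chosen after their values were seen, the intervals of the NFKB2 counts did not overlap, and the ELF3 summit lay in the stronger NFKB2 region.

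The regions where both NFKB2 places were strong were taken by the −log10 q of the second one, as the authors' caller gave it, among regions with a local background under 2 times the floor. The first was chr2:28413744-28416250, of 2507 bp, where NFKB2 had 49 fragments (36.2 to 64.8) and 37 (26.1 to 51.0) at summits 2036 bp apart. ELF3 had 36 there (25.2 to 49.8), below the count of either NFKB2 summit but with overlapping intervals. At chr6:82868445-82870729 NFKB2 had 51 and 32 fragments, 1835 bp apart, and ELF3 73, its summit on the same base as the stronger NFKB2 summit. At chr7:19053588-19055671 NFKB2 had 48 and 32, 1501 bp apart, beside 38 for ELF3. The stronger NFKB2 count was above the ELF3 count in the first and the last of these, and below it at chr6:82868445-82870729.

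The next were chr3:104701596-104704185 (NFKB2 34 and 26, ELF3 39) and chr4:129687702-129689570 (NFKB2 61 and 25, ELF3 62). The strongest ELF3 signals of this group belonged to the last 3. At chr4:89314159-89316912 NFKB2 had 25 and 24 fragments and ELF3 75. At chr5:92107945-92111272 the counts were 69 and 28 beside 83. At chr13:69741075-69744921, named above for its ELF3 signal, they were 28 and 23 beside 96. Without the limit on background, chr19:46383522-46385600 would also stand here, with NFKB2 at 40 and 38 fragments and ELF3 at 102, but its background was 3.25 times the floor for ELF3 and up to 3.05 times for NFKB2.

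The only region with 3 NFKB2 regions was chr8:106861152-106865015, of 3864 bp. NFKB2 had 17, 15 and 15 fragments there, in regions of 276, 197 and 220 bp, all at the floor. Their summits were 1815 and 1354 bp apart, and the bases between the regions numbered 1670 and 1090. ELF3 had 48 fragments, and its summit was on the same base as that of the NFKB2 region with 17. The NFKB2 counts of the 3 places differed by less than counting error.

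Fragments of ELF3 exceeded those of NFKB2 in most of the 181 regions. The stronger NFKB2 region had a median of 0.422 times the ELF3 fragments (quartiles 0.30 and 0.562), and single NFKB2 regions in ELF3 regions of equal width had 0.407 (0.286 and 0.548). These ratios were not adjusted for depth. The stronger NFKB2 region was above ELF3 in 13 of 181 (7.18%, 3.88 to 12.0%). With its NFKB2 regions summed, a region exceeded the single ELF3 summit in 41 (22.7%, 16.8 to 29.4%), which compares several places with 1.

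The highest summed ratio at a background under 2 times the floor was 2.72, at chr2:32765031-32768850 (67 and 12 beside 29). It was 2.39 at chr2:28413744-28416250 and 2.11 at chr7:19053588-19055671. At chr11:44408879-44411532 it was 2.12, from NFKB2 counts of 24 and 12 beside only 17 for ELF3. At chr12:75863966-75867201 it was 1.95, from 23 and 14 beside 19. The last 2 had few ELF3 fragments, so their ratios rest on small counts.

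The NFKB2 regions lay toward the ends of the ELF3 region with an uncovered stretch between them. Neighbouring NFKB2 summits were a median of 1756.5 bp apart (quartiles 1488 and 2244.75, range 1108 to 3441; 182 distances). Of these, 48 were under 1500 bp, 63 were from 1500 to under 2000 bp, 65 from 2000 to under 3000 bp and 6 were 3000 bp or more. The bases between the NFKB2 regions numbered 1291 at the median (1141 and 1569), close to the shortest gap of 1006 bp in the list. The stretch from the first to the last NFKB2 base took up a median of 89.1% of the ELF3 region (quartiles 78.8 and 94.2%), although NFKB2 itself covered 31.6% (23.0 and 46.9%). The requirement of a gap within a limited width pushes the NFKB2 regions outward, so this layout follows in part from the choice.

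The margin from the outer NFKB2 edge to the ELF3 edge was a median of 122.5 bp (quartiles 36.2 and 240), over 362 ends. In 41 of 181 regions NFKB2 reached beyond an ELF3 end (22.7%, 16.8 to 29.4%), by at most 729 bp, and in 2 beyond both ends. All NFKB2 summits lay inside the ELF3 region in 175 (96.7%, 92.9 to 98.8%). Single NFKB2 regions in ELF3 regions of equal width covered a median of 23.8% and were wider, at 659 bp. Each of these may join places closer together than the shortest gap in the list.

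Of the 5 longest distances between NFKB2 summits at a background under 2 times the floor, 2 were on chromosome 8. At chr8:127460063-127463960 they were 3441 bp apart, with 21 and 9 fragments, and ELF3 had 57. At chr8:127552763-127556759 they were 3156 bp apart, with 22 and 11, and ELF3 had 78. Between these came 3239 bp, at chr9:96897793-96901214 (18 and 16 fragments, ELF3 65), and next after them 3140 bp, at chr1:91225737-91229549 (17 and 10, ELF3 35). The latter also had the lowest NFKB2 cover of all 181, 9.44% of its length, and the longest uncovered stretch, 3039 bp. At chr19:45043652-45047277 the distance was 3083 bp, with 18 and 13 fragments beside 64 for ELF3.

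**Figure D3:**
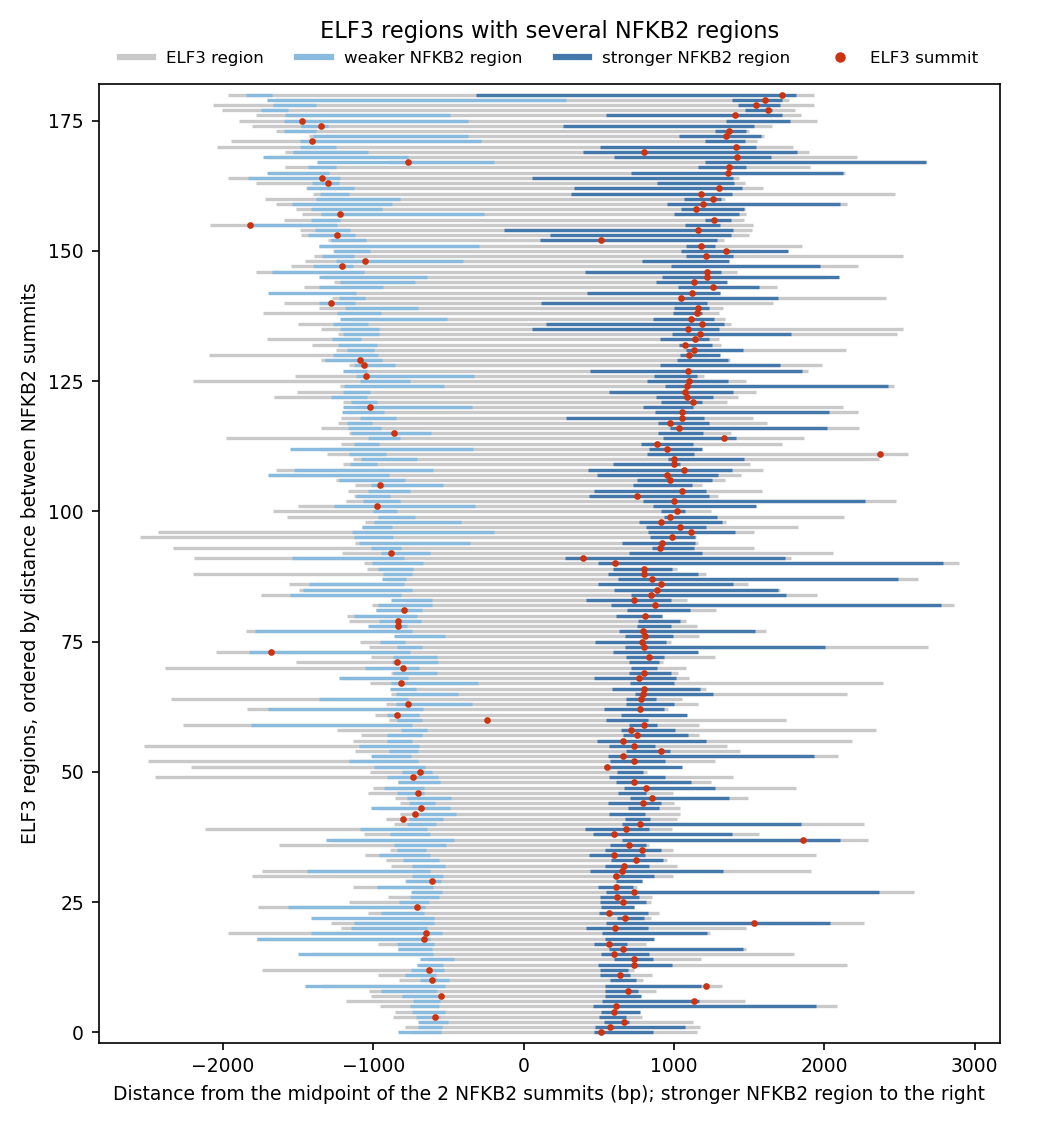
Each line is 1 of the 181 ELF3 regions (grey), ordered by the distance between its 2 strongest NFKB2 summits and turned so that the stronger NFKB2 region is on the right; the x axis is the distance in bp from the midpoint of those summits, and the third NFKB2 region of 1 line is not drawn. ELF3 summits (red) lie on an NFKB2 region in 175 lines, and 134 of these are on the stronger one.

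The ELF3 summit, whose place the choice of regions did not use, lay where NFKB2 lay. It was inside an NFKB2 region in 175 of 181 (96.7%, 92.9 to 98.8%). It was a median of 37 bp from the nearest NFKB2 summit (quartiles 15 and 75) and within 100 bp of it in 144 (79.6%, 72.9 to 85.2%). In ELF3 regions of equal width with 1 NFKB2 region the corresponding values were 85.6% inside, a median of 54 bp (19 and 260) and 64.0% within 100 bp. Several NFKB2 regions offer more places for the ELF3 summit to meet one, so the sets are not compared on equal terms.

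Of the NFKB2 regions in an ELF3 region, the stronger was the one that usually held the ELF3 summit. The summit was in the stronger NFKB2 region in 134 of 181 (74.0%, 67.0 to 80.3%) and in a weaker one in 41 (22.7%, 16.8 to 29.4%). Of the summed length of the 181 ELF3 regions, 20.9% was under the stronger NFKB2 region, 14.1% under the weaker and 64.9% under none. The 46 regions whose NFKB2 counts differed beyond counting error had the ELF3 summit in the stronger in 43 (93.5%, 82.1 to 98.6%) and in the weaker in 2. In the other 135 it was in the stronger in 91 (67.4%, 58.8 to 75.2%) and in the weaker in 39. In these 135 the order of the NFKB2 counts was within counting error, so which region was called the stronger is uncertain. The 2 shares are thus not compared on equal terms. The difference between them was not tested, since regions of 1 library are not replicates.

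**Figure D4:**
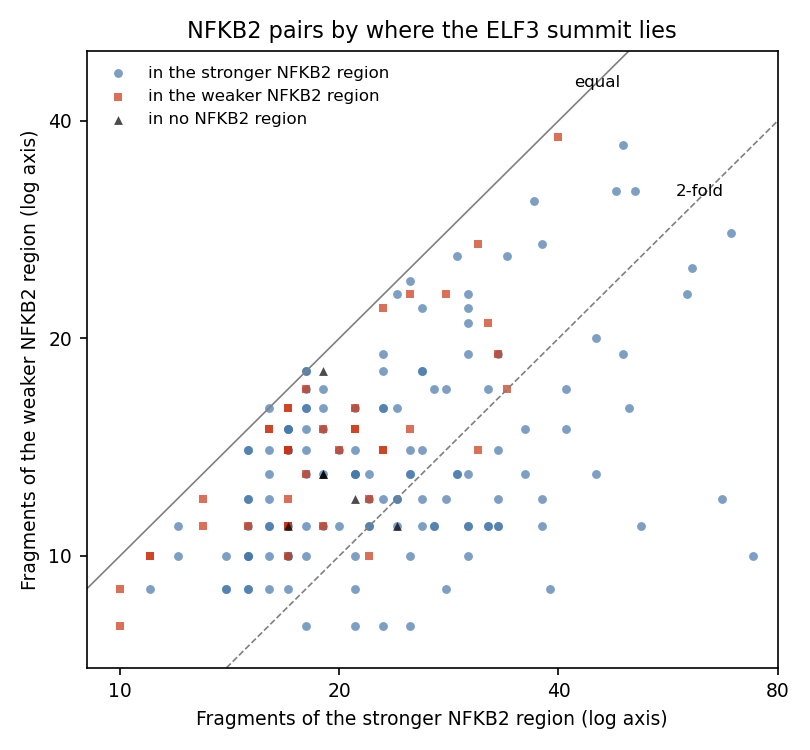
Each point is 1 of the 181 regions, with the fragments of its stronger NFKB2 region on the x axis and of its weaker one on the y axis (both log), and its colour and shape show where the ELF3 summit lay. Regions with the summit in the weaker NFKB2 region lie mostly between the line of equal counts and the 2-fold line.

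In 6 regions the ELF3 summit lay in no NFKB2 region; they were named after their values were seen. In 3 it was between the NFKB2 regions. At chr10:81192312-81194955 it was 527 bp from the nearest NFKB2 summit, with 17 ELF3 fragments beside 19 and 13 for NFKB2. At chr5:115644515-115648202 it was 124 bp away and at chr8:95429489-95431250 57 bp away. In the other 3 it was outside the NFKB2 regions on one side, 1358 bp away at chr4:63656865-63660730, where ELF3 had 49 fragments and NFKB2 24 and 11. The others were chr3:104695662-104698332, at 591 bp, and chr12:85518760-85520697, at 71 bp, where the ELF3 background was 2.43 times the floor.

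The reverse view starts from NFKB2. Of 1108 pairs of neighbouring NFKB2 regions on chromosomes 1 to 19 with summits under 4000 bp apart, 182 lay in 1 of the 181 ELF3 regions (16.4%, 14.3 to 18.7%) and 150 in 1 ELF3 region of 4000 bp or more. Another 710 lay in separate ELF3 regions (64.1%, 61.2 to 66.9%), and in 66 at least 1 partner had no ELF3 region. A single ELF3 region therefore joined 332 of the 1108 pairs (29.96%, 27.3 to 32.8%).

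The joined share depended on the distance. With summits under 1500 bp apart, 66 of 88 pairs lay in 1 ELF3 region of any width (75%, 64.6 to 83.6%). From 1500 to under 2000 bp these were 99 of 207 (47.8%, 40.9 to 54.9%) and from 2000 to under 3000 bp 119 of 446 (26.7%, 22.6 to 31.0%). From 3000 to under 4000 bp they were 48 of 367 (13.1%, 9.80 to 17.0%). Pairs can share an NFKB2 region or an ELF3 region, which the intervals do not allow for. Joining summits further apart takes a wider ELF3 region, and wider ones were fewer, so the fall follows in part from the widths. It was not tested. ELF3 regions in the list are never closer than 1001 bp, so at short distances few pairs could fall in separate ELF3 regions. Pairs without ELF3 at one or both partners stayed between 5.72% and 6.82% of each bin.

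**Figure D5:**
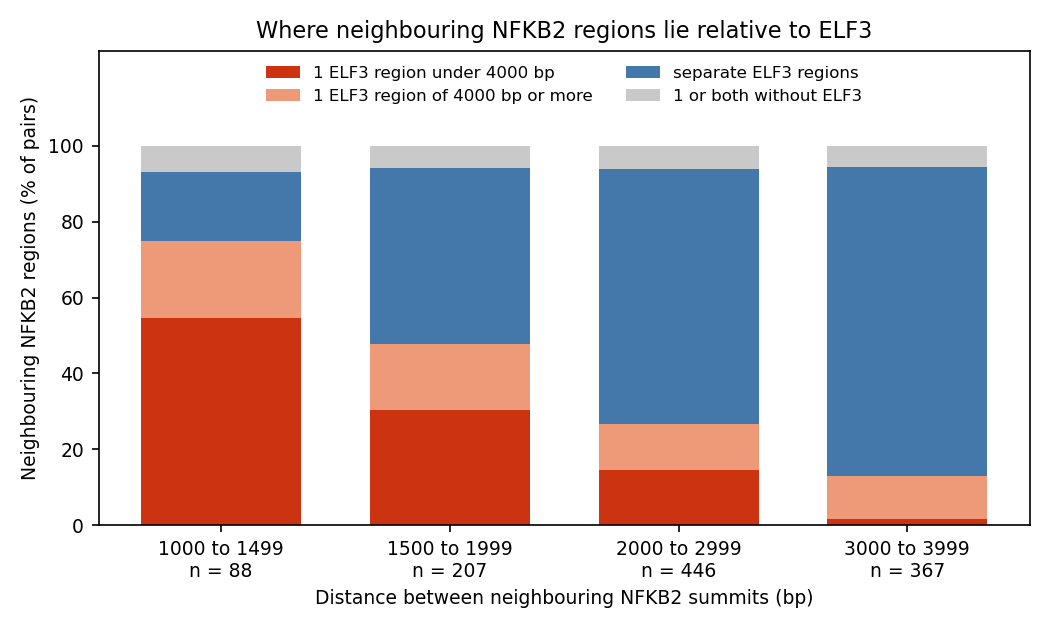
Bars give the percentage of neighbouring NFKB2 pairs at each summit distance (x axis, bp) that lie in 1 ELF3 region under 4000 bp, in 1 wider ELF3 region, in separate ELF3 regions, or with a partner lacking ELF3. The 2 red parts together shrink from 75% to 13.1% as the distance grows.

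The 181 regions were mostly scattered, with a few close neighbours. The median distance from one to the next on the same chromosome was 5143380 bp, and 12 of 162 neighbouring pairs were within 100 kb. The closest were chr15:89056648-89060112 and chr15:89061322-89065275, with 1210 bp between them, each with 2 NFKB2 regions (13 and 11 fragments, and 18 and 16). On chromosome 3, chr3:104695662-104698332 lay 3264 bp from chr3:104701596-104704185, one of the regions with a strong second NFKB2 place. Those at chr7:19053588-19055671 and chr6:82868445-82870729 also had another of the 181 regions close by, 9201 and 9439 bp away. These neighbours, at chr7:19041571-19044387 and chr6:82856103-82859006, had NFKB2 counts of 30 and 10 and of 19 and 13.

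Other binding was frequent around the 181 regions. Within 10 kb of their ends, 81 had at least 1 further NFKB2 region (44.8%, 37.4 to 52.3%), up to 5, with a mean of 0.718. ELF3 regions of equal width had such a neighbour in 34.8% of cases when they held 1 NFKB2 region and in 24.4% when they held none, with means of 0.532 and 0.329. Further ELF3 regions lay within 10 kb of 154 of the 181 (85.1%, 79.0 to 89.9%), and of 78.0% and 71.6% of the equal-width sets. The values for the sets with 1 and with no NFKB2 region were thus lower than those of the 181 regions for NFKB2 and for ELF3. Some of the 181 regions lay within 10 kb of one another, which the intervals do not allow for. The equal-width sets were formed by their NFKB2 content, and these differences were not tested.

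Every chromosome from 1 to 19 carried at least 2 of the regions. Chromosome 11 had most, 16, followed by chromosomes 7, 8 and 10 with 14 each, and chromosome 14 had the fewest, 2. Set against the 3040 ELF3 regions at least as wide as the narrowest of the 181 that held any NFKB2 region, 5.95% belonged to the 181. This share ranged from 1.92% on chromosome 14 (0.234 to 6.77%) to 8.97% on chromosome 8 (4.99 to 14.6%). The 19 intervals overlapped one another at these small counts, and differences between chromosomes were not tested.

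Local background was raised to 2 or more times the floor in the ELF3 list for 12 of the 181 regions (6.63%), against 6.05% of all ELF3 regions of these chromosomes. In the NFKB2 list it was raised for 25 of the 363 NFKB2 regions they held (6.89%, 4.51 to 9.999%), against 7.68% of the 14060 on these chromosomes. These 25 lay in 22 of the 181 regions, and 27 regions were raised in either list. Without any region so raised, 154 remained, with a median of 54.5 ELF3 fragments, an ELF3 summit inside NFKB2 in 96.8% and a weaker-to-stronger ratio of 0.645, each within the interval of the value for all 181.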

How the data were processed

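CUT&RUN region lists of 2 libraries were used, ELF3 and NFKB2, grouped by their titles. Regions were called with MACS2 and the build is named as mm10, per the submitters' processing notes; the version, settings, aligner, filters and the control used in calling were each not given in the sources used here. Those files hold sequence names (MU069434v1, MU069435v1) that belong to GRCm39, so regions were not joined to the GRCm38.p6 gene table, and gene starts, gene lists, cell type markers, promoters and motifs were not analysed here. The deposited lists give a score (10 times −log10 q), a fold ratio of summit signal over local background, −log10 p and −log10 q, all by the authors' caller, and a summit, which equals the deposited summit list in 100% of regions.

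Fragments and background were solved from fold, which adds 1 to both signals, and −log10 p (tolerance 0.01, scaled up above 100). No whole number was found for 1 ELF3 and 7 NFKB2 regions, none of them among the 181. A fragment was worth 1 unit for ELF3 and 0.964 for NFKB2. The recovery rests on this model of the caller and was tested on simulated data, as were the overlaps. Shares have exact Clopper-Pearson and counts exact Poisson 95% intervals, for counting error only; copies made by PCR were not assessed. Equal-width sets were weighted to the 181 regions in bins of 250 bp. No p-value was computed. The regions named are the 8 with most NFKB2 regions (ties by the −log10 q of the weakest) and the 8 of highest second NFKB2 −log10 q. Further named are the 5 each of highest ELF3 −log10 q, longest summit distance and highest summed NFKB2 over ELF3 fragments, and the 3 on each side of the width limit. All of these except the first and the last take only a background under 2 times the floor. Others were named after their values were seen. The regions, rules and comparisons were chosen with earlier results of these data known. Python 3.11.15, numpy 2.4.6, pandas 2.3.3, scipy 1.17.1 and matplotlib 3.10.9 were used.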

Additional observations from a re-analysis of the deposited data

How the results depend on the processing

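Of 99 values recomputed with other settings, 73 stayed within 1.5 times the count or within the interval of the value given, and 26 moved. Requiring NFKB2 −log10 q of 5 or more left 89 regions, 0.651% of ELF3 regions of 1000 bp or more and under 4000 bp (1.32% as reported). The median of ELF3 fragments was then 60, against 52 in equal-width regions with 1 NFKB2 region. The weaker-to-stronger ratio was 0.711 and NFKB2 cover 36.2%. At −log10 q of 10 or more, 25 regions (0.183%) were left, 0% of them with 3 NFKB2 regions. Their median ELF3 fragments were 65, against 56 in the equal-width set, 100% had the ELF3 summit inside NFKB2 and 72% within 100 bp of its summit, the ratio was 0.755 and the cover 39.3%. Fewer NFKB2 regions enter by construction. With ELF3 −log10 q of 10 or more the share was 1.61%. Without a width limit there were 325 regions, 11.7% with 3 or more NFKB2 regions, a median width of 3813 bp and NFKB2 summits 2154 bp apart. With a limit of 3000 bp there were 90 regions, 0% with 3 or more, 2332 bp wide, with summits 1559.5 bp apart; these follow from the limit. Without raised background the equal-width set with 1 NFKB2 region had a median of 45 fragments, against 54.5 in the regions with several. The ELF3 summit was within 50 bp of an NFKB2 summit in 61.3% and within 200 bp in 91.2%. Other causes were not tested. Alternatives for gene starts and motifs were not run. No paired analysis was possible because each antibody has 1 library. A place missing from the NFKB2 list may still be bound, below 8 fragments at the floor or below a higher count where background was raised.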

Other observations

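With chromosome X included, 1 further ELF3 region under 4000 bp held several NFKB2 regions, which made 182.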
